A study of Mus musculus with 6 samples.

Results

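The genes described are 10 markers of smooth muscle, Tagln, Cnn1, Cald1, Tpm2, Acta2, Actg2, Myl9, Mylk, Myh11 and Des. The genes were read in intestinal crypts cut out by laser microdissection, as a guide to muscle or tissue around the crypts in each dissection. They were taken from the array by the accession that each probe names. This gave 9 probes for 7 of the 10 genes, of 41006 probes for 12362 named genes in all. No probe was paired with Acta2, Myl9 or Myh11, so these 3 were not analysed here. The study compared 3 LOI(+) mice, whose maternal chromosome lacked H19 together with its upstream differentially methylated region, with 3 wild-type LOI(-) mice of the same cross. All 6 were C57BL/6 adults of 120 days, with 4 labelled male and 2 given no sex. Each array held RNA of 1 mouse in the Cy3 channel and Universal Mouse Reference RNA, pooled from cultured cell lines that include a muscle myoblast and an embryo fibroblast line, in the Cy5 channel. The deletion is in the germline and not limited to a cell type.

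In smooth muscle, the kinase encoded by Mylk phosphorylates the regulatory light chain Myl9, which lets the myosin heavy chain Myh11 pull on filaments of the muscle actins Acta2 and Actg2. Tropomyosin (Tpm2), caldesmon (Cald1), calponin (Cnn1) and transgelin (Tagln) sit on those filaments, and desmin (Des) forms the intermediate filaments that anchor them. In the small intestine this muscle lies in the outer wall, in the thin muscularis mucosae under the crypt bases and in strands of the villus core, and myofibroblasts beside the crypts share part of the programme. Mylk, Cald1 and Tpm2 also have forms that are made outside muscle.

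Actg2 and Tpm2 were the members with a pair of probes each, and Mylk was the member with the highest crypt over reference ratio, so their probe sequences are shown, 5′ to 3′, as the array files give them. Capitals mark the longest run of bases that occurs in any other probe of the array.
Actg2 probe A_66_P100140: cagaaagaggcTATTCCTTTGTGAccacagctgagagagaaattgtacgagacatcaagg
Actg2 probe A_66_P102515: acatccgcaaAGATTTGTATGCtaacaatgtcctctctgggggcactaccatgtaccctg
Tpm2 probe A_66_P119511: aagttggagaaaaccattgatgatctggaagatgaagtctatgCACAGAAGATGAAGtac
Tpm2 probe A_66_P136335: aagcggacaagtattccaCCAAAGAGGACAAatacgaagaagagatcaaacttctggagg
Mylk probe A_66_P101918: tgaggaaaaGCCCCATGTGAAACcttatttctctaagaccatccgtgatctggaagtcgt
The longest such run was 12 to 14 bases in all 9 member probes. Hybridization of actin transcripts from other genes to the Actg2 probes, or of other tropomyosin transcripts to the Tpm2 probes, was not tested. The genes lie at chr6:83512909-83536251 (Actg2), chr4:43513726-43523583 (Tpm2) and chr16:34745199-35002436 (Mylk) in GRCm38.p6. Tagln at chr9:45929628-45936058, Cnn1 at chr9:22099221-22109221, Cald1 at chr6:34598495-34775469 and Des at chr1:75360292-75368579 had 1 probe each.

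The labelled tissue was checked by epithelial genes. Of 16 written, 12 had a probe, and 10 of the 12 had more Cy3 than Cy5 on all 6 arrays, where 29% of all probes did. All 12 lay above the negative controls in Cy3 on all 6 arrays, as did 91.4% of all probes. Cldn3, a tight junction protein, had log2 ratios of crypt over reference from 3.44 to 3.75, and Muc2, the goblet cell mucin, from 3.27 to 3.59. The median Cy3 signal of a non-control feature was 563 to 589 on LOI(+) arrays and 552 to 603 on LOI(-) arrays. Igf2 differed between the groups by -0.0024 ± 0.058 (SE, log2; limma adjusted p 0.997). No probe was paired with H19, so the deletion itself was not read.

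The members ranged in Cy3 mean signal from well above the negative controls, as at Tagln, Cnn1 and Mylk, down to their level, as at Cald1. Cy3 signals were set against 314 negative control features of each array, whose 95th percentile was 439 to 445 on LOI(+) arrays and 445 to 449 on LOI(-) arrays. Of the 9 member probes, 8 lay above it on all 6 arrays, a share close to the 91.4% of all probes that did. Des and the Actg2 probe A_66_P100140 passed it at no more than 1.08 times. In the Cy5 channel all 9 probes did on all 6 arrays, against 96.9% of all probes. No member spot was saturated or marked as an outlier.

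**Figure D1:**
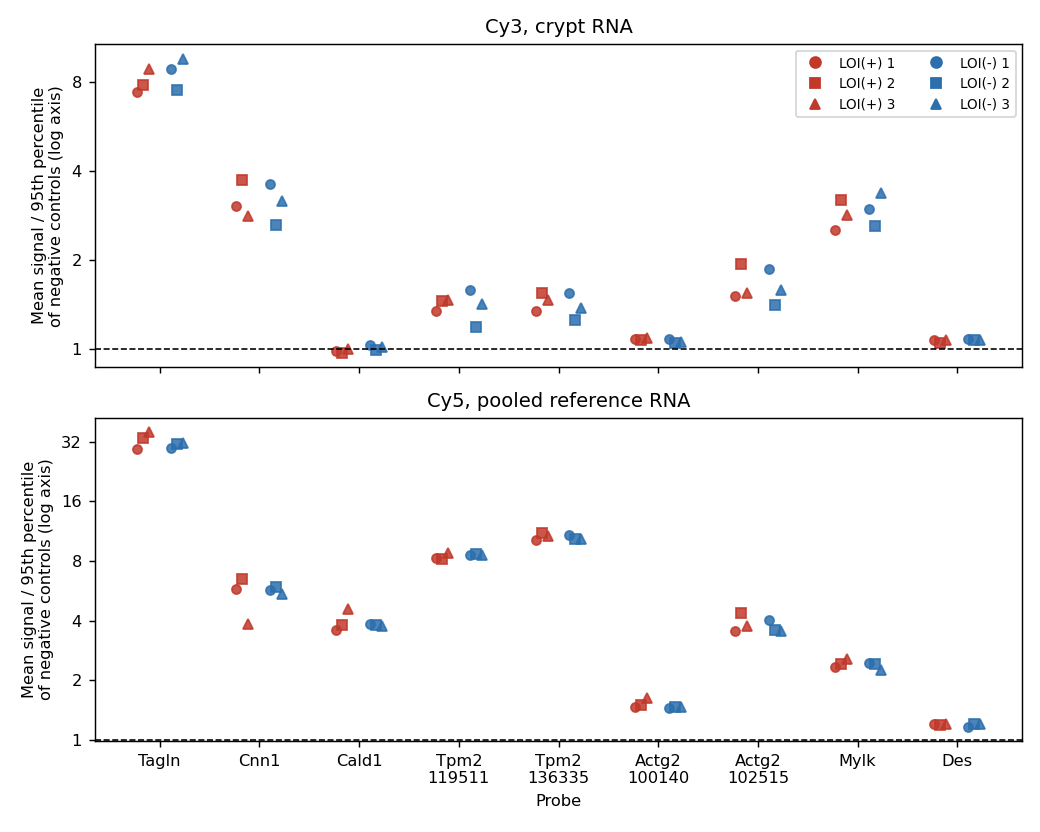
Mean signal of each member probe divided by the 95th percentile of negative controls in the same channel of that array, on a log axis, with LOI(+) arrays left of LOI(-) arrays and the dashed line at 1. In Cy3 the Tagln probe sits 7.42 to 9.61 times above the line, Cald1 straddles it at 0.968 to 1.03, and Des stays at 1.05 to 1.07.

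Tagln, an actin-binding protein of smooth muscle also called SM22, lay farthest above the negative controls of its array. Its Cy3 signal was 3307, 3490 and 3904 in LOI(+) crypts and 3969, 3380 and 4275 in LOI(-) crypts. The Cy5 signal of the reference at this probe was 11412, 13164 and 13883 on the LOI(+) arrays and 11666, 12201 and 12367 on the LOI(-) arrays. Transgelin RNA was thus read in both the crypts and the cultured cells, and the Cy3 signals of the groups overlapped.

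The log2 ratios of Tagln, crypt over reference, were -0.74, -1.05 and -0.66 in LOI(+) crypts and -0.56, -0.53 and -0.30 in LOI(-) crypts. Every LOI(+) array was below every LOI(-) array, with LOI(+) 2 lowest and LOI(-) 3 highest. The difference was -0.35 ± 0.12 (SE, log2, n = 3 mice per group), with a 95% interval from -0.64 to -0.072, but its adjusted p of 0.808 in limma missed the threshold of 0.05. Its unadjusted p was under 0.05, but no longer so without LOI(-) 3, where the difference was -0.27, or with Cy3 alone, where it was -0.26. Over all 6 arrays the reference exceeded the crypts by 1.56-fold.

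Calponin 1 (Cnn1), which binds thin filaments and restrains contraction in muscle, had Cy3 signals of 1360, 1664 and 1240 in LOI(+) crypts and 1611, 1179 and 1405 in LOI(-) crypts. They were 2.63 to 3.74 times the 95th percentile of the negative controls. Its log2 ratios were 0.07, 0.19 and 0.71 in LOI(+) crypts and 0.29, 0.01 and 0.39 in LOI(-) crypts. The highest, on LOI(+) 3, came with the lowest Cy5 signal, 1498 against 2136 to 2545 on the other arrays, and with a Cy3 signal that was among the lower ones. Cnn1 differed by 0.094 ± 0.18, and the sign turned without LOI(+) 3, to -0.099, and without LOI(-) 2, to -0.015. The groups overlapped and the adjusted p was 0.945 in limma.

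Cald1, caldesmon, was at the level of the negative controls in the Cy3 mean signal of crypt RNA. Its Cy3 signal was 439, 430 and 438 in LOI(+) crypts and 459, 445 and 451 in LOI(-) crypts. It passed the 95th percentile of the negative controls on none of the LOI(+) arrays and on 2 of the LOI(-) arrays, and between 1 and 161 of the 314 negative controls of an array were as bright. In the reference, at 1400 to 1779, Cald1 was above every negative control on all 6 arrays.

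The log2 ratios of Cald1 were -3.25, -3.44 and -3.35 in LOI(+) crypts and -3.07, -3.02 and -2.96 in LOI(-) crypts, without overlap. LOI(+) minus LOI(-) came to -0.33 ± 0.070, adjusted p 0.808 in limma, and to -0.51 from the processed signals. Because the crypt signal was not above the negative controls, this difference is not a measured fold of caldesmon RNA.

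Tpm2, beta-tropomyosin, was read by both of its probes at a low level in crypts and a high one in the reference. At probe A_66_P136335 the Cy3 signal was 598, 689 and 640 in LOI(+) crypts and 688, 562 and 611 in LOI(-) crypts. The Cy5 signal at that probe was 3964 to 4375, and the reference exceeded the crypts by 7.31-fold. Probe A_66_P119511 gave a reference excess of 5.92-fold.

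The log2 ratios of Tpm2 at A_66_P136335 were -3.07, -2.74 and -2.70 in LOI(+) crypts and -2.77, -3.10 and -2.84 in LOI(-) crypts. At A_66_P119511 they were -2.72, -2.47 and -2.36 in LOI(+) crypts and -2.32, -3.08 and -2.43 in LOI(-) crypts. LOI(-) 2 was lowest at both probes, and LOI(+) 1 was the next lowest at both. The groups overlapped, with differences of 0.070 ± 0.13 and 0.092 ± 0.20 and adjusted p of 0.941 and 0.956 in limma. Without LOI(-) 2 both turned to -0.028 and -0.14.

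Actg2, the gamma actin of enteric smooth muscle, gave different signals at its 2 probes. At A_66_P100140 the Cy3 signal was 479, 477 and 476 in LOI(+) crypts and 481, 468 and 468 in LOI(-) crypts, only 1.04 to 1.08 times the 95th percentile of the negative controls. At A_66_P102515 it was 672, 859 and 677 in LOI(+) crypts and 833, 633 and 701 in LOI(-) crypts, 1.41 to 1.93 times that percentile. The crypt over reference ratios of the probes were nevertheless close, at a mean log2 of -0.74 and -0.76.

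The log2 ratios of Actg2 at A_66_P102515 were -0.93, -0.61 and -0.85 in LOI(+) crypts and -0.61, -0.91 and -0.65 in LOI(-) crypts, so both groups spanned the same values. At A_66_P100140 all 6 arrays lay between -0.80 and -0.70. The differences were -0.070 ± 0.11 and 0.019 ± 0.057, with adjusted p of 0.931 and 0.967 in limma. The 95% interval at A_66_P102515 ran from -0.34 to 0.20, and leaving out 1 array moved the difference between -0.16, without LOI(+) 2 or LOI(-) 2, and -0.0020, without LOI(+) 1.

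Mylk, the myosin light chain kinase, exceeded the reference in crypts. Its Cy3 signal was 1121, 1418 and 1245 in LOI(+) crypts and 1327, 1169 and 1495 in LOI(-) crypts, and the Cy5 signal was 884 to 994. The log2 ratios were 1.30, 1.67 and 1.49 in LOI(+) crypts and 1.45, 1.60 and 2.14 in LOI(-) crypts, a mean crypt excess of 3.05-fold. LOI(-) 3 stood highest and the other 5 arrays overlapped. Mylk was thus 0.24 lower in LOI(+) on the log2 scale (-0.24 ± 0.19, adjusted p 0.853 in limma), and without LOI(-) 3 this was -0.035.

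Des, desmin, the intermediate filament protein of muscle, was barely above the negative controls in either channel. Its Cy3 signal was 475, 465 and 468 in LOI(+) crypts and 480, 480 and 476 in LOI(-) crypts, and its Cy5 signal was 459 to 473. The log2 ratios were -0.11, -0.19 and -0.0038 in LOI(+) crypts and -0.02, 0.06 and 0.01 in LOI(-) crypts. The groups overlapped, with LOI(+) 2 lowest, and differed by -0.12 ± 0.067 with an adjusted p of 0.829 in limma. The difference was -0.073 without LOI(+) 2.

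**Figure D2:**
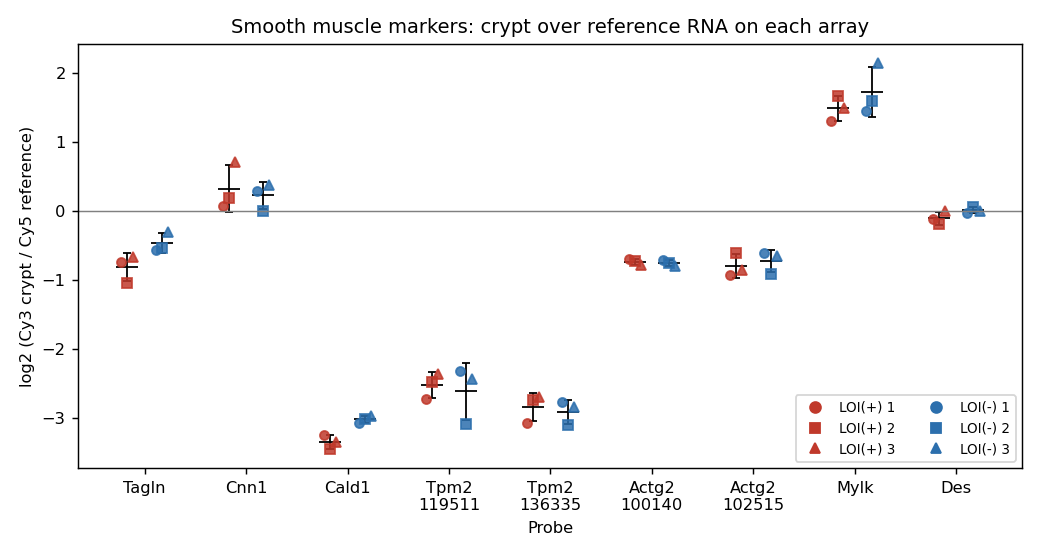
Log2 ratio of Cy3 (crypt) over Cy5 (reference) for each member probe, with LOI(+) arrays left of LOI(-) arrays, symbols for the mice, and bars for the mean ± SD of 3 mice. Mylk is above 0 on all arrays, Cald1 and Tpm2 are below -2, and the groups lie apart at Tagln and Cald1.

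Against the reference, the members did not all lie on one side. Of the 9 probes, 6 had less Cy3 than Cy5 on all 6 arrays (Tagln, Cald1 and both probes of Tpm2 and Actg2), where 31.2% of all probes did. Cnn1 and Mylk had more Cy3 on all 6, as 29% of all probes did, and Des had neither. Crypt RNA was always in Cy3, so the dye and the RNA source cannot be told apart in a ratio, and no test is given. The ratio sets the crypts against cell lines that express some of these genes, so a low ratio is not a low level in crypts.

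Between LOI(+) and LOI(-) crypts no member passed the test. With limma over all 41006 probes, 0 of the 9 member probes had an adjusted p under 0.05, as did 0% of all probes. At an unadjusted p under 0.05 there were 2 of the 9, Tagln and Cald1, both lower in LOI(+), against 6.11% of all probes, 2.3% lower and 3.82% higher. At those 2 probes every LOI(+) array also lay below every LOI(-) array, which 5.04% of all probes showed. The opposite order was seen at 0 member probes and at 6.26% of all probes. With 9 probes, 1 of them at the level of the negative controls in mean signal, these counts do not show that the members differ from other probes. Of the 9 probes, 5 were lower in LOI(+) and 4 were higher, and 49% of all probes were lower. By gene, 5 of 7 were lower and 2 higher. The median difference of the 7 genes was -0.12, against 0.0023 over all probes.

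**Figure D3:**
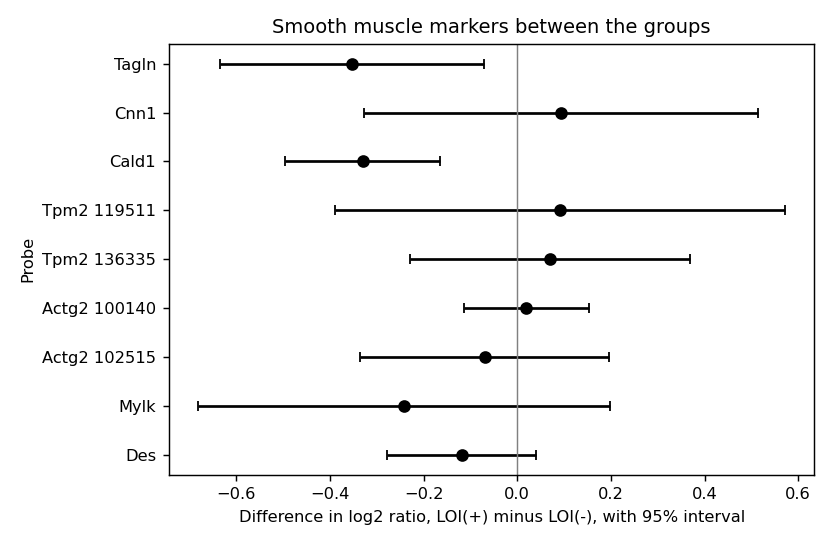
Difference in log2 ratio, LOI(+) minus LOI(-), for each member probe (points), with the 95% interval from limma (bars). The intervals of Tagln and Cald1 lie below 0 before adjustment, and the other 7 include 0.

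The arrays were then compared by the mean of the 7 genes, each centred on its own 6 arrays, which sets the dissections beside each other for these transcripts. The mean was -0.14, -0.092 and 0.041 in LOI(+) crypts and 0.046, -0.050 and 0.19 in LOI(-) crypts. LOI(-) 3 was highest, with all 7 genes above their own mean, and LOI(+) 1 was lowest, with 0 of 7 above. The groups overlapped, since LOI(+) 3 was above LOI(-) 2. With all 7 genes this order depended on Cnn1, at 0.43 on LOI(+) 3 and -0.27 on LOI(-) 2. The reference signal of Cnn1 was lowest on LOI(+) 3. The difference of the groups was -0.13, and without LOI(-) 3 it was -0.062. Cald1 was at the level of the negative controls in mean signal. Without it, the mean was -0.15, -0.063 and 0.076 in LOI(+) crypts and 0.035, -0.085 and 0.19 in LOI(-) crypts. LOI(+) 3 then lay above both LOI(-) 1 and LOI(-) 2, and the difference was -0.094. In such bulk RNA, fewer muscle cells, less of these transcripts per cell and less RNA from other cells that make them cannot be told apart.

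The summed Cy3 signal of the 9 probes above the median negative control was 5144, 6264 and 5889 in LOI(+) crypts and 6624, 4900 and 6592 in LOI(-) crypts. LOI(-) 2 was the lowest on this scale, which is not scaled between arrays. The same array had the lowest summed Cy3 for contraction genes (12407), stroma (5369), endothelium (2651) and crypt epithelium (116869), and a median feature of 552. LOI(-) 3 had a median feature of 552 as well, and the part of array brightness in the sum was not tested. Myl6, at 7916 to 19827 in Cy3, was the brightest of the contraction genes. Other lists were lowest elsewhere, neurons and glia on LOI(-) 3 (1523), leukocytes on LOI(+) 1 (18061) and striated muscle on LOI(+) 2 (9382). The members also disagreed on single arrays. LOI(-) 2 was lowest for 3 genes (Cnn1, Tpm2 and Actg2) and highest for Des, and LOI(+) 2 was lowest for another 3 (Tagln, Cald1 and Des).

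Genes of smooth muscle contraction and its control that are not members were read from a list of 34, of which 25 had a probe. Of these 25, 0 passed the adjusted test, and 1 was higher and 0 were lower at an unadjusted p under 0.05. Of all probes, 3.82% were higher and 2.3% lower at that level. The 1 was Srf, the transcription factor that drives smooth muscle genes with its partner Myocd, at 0.22 ± 0.080 with an adjusted p of 0.808 in limma. Cacna1c, a calcium channel subunit, was at 0.14 ± 0.068, and Rock1 and Rock2, kinases that inhibit myosin phosphatase, were at 0.28 ± 0.14 and -0.13 ± 0.069. The median of the 25 was -0.033, with 15 lower and 10 higher. Of the 25, 22 passed the 95th percentile of the negative controls in Cy3 on all 6 arrays, where 91.4% of all probes did. Lmod1 and Kcnmb1, a leiomodin and a potassium channel subunit typical of smooth muscle, passed it on 0 of 6 arrays.

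Fibroblast and pericryptal stroma genes had 19 of 24 measured. All 19 were above the 95th percentile of the negative controls in Cy3 on all 6 arrays, as were 91.4% of all probes. Their Cy3 signals ran from near that level, as at Pdgfra (449 to 497), up to 2459 to 2986 at Foxl1. Of the 19, 18 had less Cy3 than Cy5 on all 6 arrays, where 31.2% of all probes did. Between the groups, 16 of the 19 were lower and 3 higher in LOI(+), where 49% of all probes were lower. The median of the 19 was -0.059, and 0 passed at either level. Mmp2, a collagenase of stromal cells, was at -0.15 ± 0.062, Col6a1, a chain of collagen VI, at -0.27 ± 0.14, Grem1, a BMP antagonist, at -0.096 ± 0.058, and Pdgfra, a growth factor receptor of fibroblasts, at -0.17 ± 0.16. Their summed Cy3 above the median negative control was 5951 to 7042 on LOI(+) arrays and 5369 to 8648 on LOI(-) arrays. Endothelial and pericyte genes had 12 of 15 measured, with 10 lower and 2 higher, a median of -0.063 and 0 passing at either level. Tie1 and Lyve1, a receptor and a hyaluronan-binding protein of endothelium, were at -0.19 ± 0.099 and -0.15 ± 0.091, and Tie1 passed the detection level on 2 of 6 arrays.

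The list means by array placed LOI(+) 1 at -0.044 for contraction genes, -0.15 for stroma and -0.12 for endothelium. Crypt epithelium was also low there, at -0.045, as were leukocytes, at -0.15. Neurons and glia were at 0.020 on that array and striated muscle at 0.041. On LOI(+) 2, contraction genes were at 0.033, stroma at -0.012 and endothelium at -0.077. Crypt epithelium was lowest on LOI(+) 2, at -0.17. LOI(-) 2, like LOI(+) 1, was low for contraction genes, stroma and endothelium, at -0.058, -0.080 and -0.083. LOI(-) 3, the array with the highest mean of the members, had 0.084, 0.072 and 0.084, below LOI(-) 1 in stroma (0.13) and endothelium (0.11). It was also the highest for crypt epithelium, at 0.20. Epithelial genes in turn had a median difference of -0.14, with 10 of 12 lower in LOI(+), as were 49% of all probes. At an unadjusted p under 0.05, 3 were lower, against 2.3% of all probes. These were Cdx1 at -0.33 ± 0.10, Muc2 at -0.19 ± 0.073 and Krt8, an epithelial keratin, at -0.55 ± 0.23. The part of dissection or of array-wide shifts in the differences of Tagln and Mylk was not tested.

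**Figure D4:**
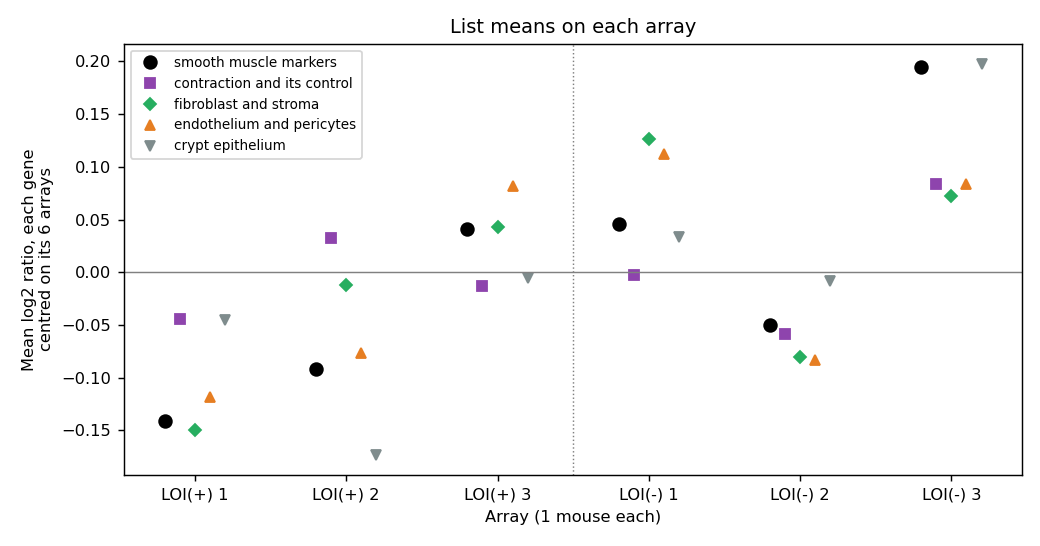
Mean log2 ratio of each gene list on each array, with every gene centred on its 6 arrays. The LOI(+) arrays are left of the dotted line. The smooth muscle markers run from -0.14 on LOI(+) 1 to 0.19 on LOI(-) 3, where crypt epithelium is also at 0.20.

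The genes outside the list whose centred ratios came closest to the mean of the members over the 6 arrays were Fam151a, Gpx3, Sae1, Sh3bgrl3 and Pxmp4. Their root mean square differences from it were 0.016, 0.025, 0.026, 0.028 and 0.031 on the log2 scale, among 11679 named genes above the negative controls on all arrays. Gpx3 encodes a secreted glutathione peroxidase and Sae1 a subunit of the SUMO-activating enzyme. None is on the contraction, stroma or endothelium lists.

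The promoters were searched for the CArG box, the motif bound by SRF in many muscle genes, which reads the same way on both strands. RefSeq windows from 250 bases before to 50 after the gene start (GRCm38.p6) were at hand for 7 of the 10 members. The motif was in 1 of these 7, Myl9, which had no probe, and in 1.63% of all 32851 windows.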

How the data were processed

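Total RNA of microdissected crypts (Cy3) and of the reference pool (Cy5) was hybridised to 6 arrays, 1 mouse each, without dye swap, per the labels. The authors deposited spot intensity values as Agilent Feature Extraction A.7.5.1 wrote them, per the file headers: mean signal and median local background unnormalized, and a processed signal after background subtraction and LOWESS dye normalization. The authors also deposited a table of log10 values, used as an alternative. Its columns follow the log10 ratio of processed Cy3 over Cy5, shifted by the average log10 Cy5 of the probe, at a correlation of at least 0.998 per array. The median of each column is 2.90.

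Each array had 41034 non-control features for 41006 probes. By accession, symbol or synonym, 15429 probes were named from a GRCm38.p6 gene table and 25577 were not. In limma 3.58.1 under R 4.3.3, normexp with offset 50 corrected the mean signals, which shrinks ratios of dim probes, and loess followed with controls at weight 0. Outlier spots were left out. Per the file headers, images of the LOI(-) arrays were extracted before those of the LOI(+) arrays, so this order and the group cannot be told apart. Values are log2 Cy3 over Cy5. Groups were compared with lmFit and eBayes, two-sided, with Benjamini-Hochberg adjustment over all probes at 0.05; the median SE was 0.078. The number of arrays limits the precision. Genes with several probes outside the members were read by the probe of highest mean Cy3.

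The members and lists were chosen with earlier results of these data known, so no p is given over a list. Named were all member probes, up to 4 genes of smallest p per list and the 5 closest patterns. Each mouse is a separate animal per the labels.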

Additional observations from a re-analysis of the deposited data

Results flagged for a closer look

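The reference RNA was the same on all 6 arrays, so its Cy5 signal at each member probe was checked for an array far from the others. Of the 9 probes, 3 had one, and chance marks about 1 in 20 such sets. At the Cald1 probe the Cy5 signal was 1779 on LOI(+) 3, against 1400 to 1517 on the other 5 arrays. At the Actg2 probe A_66_P100140 it was 633.9 on LOI(+) 3, against 568 to 589. At the Des probe it was 459 on LOI(-) 1, against 469 to 473. The Cnn1 probe had its lowest Cy5 signal on LOI(+) 3 as well, 1498 against 2136 to 2545, but stayed just inside the limit. For the crypt signals, groups of 3 mice are too small for such a check.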

How the results depend on the processing

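No probe passed an adjusted p of 0.05 in limma under any of the 16 alternatives, and the smallest adjusted p of a member was 0.525. The counts at an unadjusted p under 0.05 ran from 1604 without LOI(+) 2 to 3596 without LOI(+) 1, against 2507. The mean difference of the members, -0.13, stayed below 0 in all 16 alternatives, from -0.18 to -0.094 in the 10 that keep all arrays and from -0.18 to -0.062 when 1 array was left out. Tagln, Cald1, Mylk, Des and the Actg2 probe A_66_P102515 were below 0 in every alternative run that held them, though Actg2 there came as near as -0.0020. Cald1 was at -0.50 with an offset of 16, -0.51 with processed signals and in the deposited table, and -0.55 with scale normalization, and the filter on dim probes dropped it, which left a member mean of -0.094. Cnn1 turned to -0.077 with Cy3 alone. With scale normalization Tpm2 turned to -0.072 at A_66_P119511 and -0.11 at A_66_P136335, and Actg2 at A_66_P100140 to -0.029, which was -0.044 with median centring. With 1 array left out, Cnn1 ran from -0.099 to 0.22, Tpm2 from -0.14 to 0.24 and from -0.028 to 0.19, Actg2 at A_66_P100140 from -0.0016 to 0.045 and at A_66_P102515 from -0.16 to -0.0020, Mylk from -0.38 to -0.035 and Des from -0.17 to -0.073. The causes were not tested.

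Of the 54 readings of a member probe on an array, 50 had Cy3 above the 95th percentile of the negative controls. With processed signals 54 did. Above the highest negative control of the same array there were 35. That control was a bright spot of 7582 on LOI(-) 1, which no member reading there passed, and 453 to 558 on the other arrays. Correlations between same-numbered arrays were -0.084, -0.25 and 0.35. Differently numbered arrays were not set beside them, so these values do not settle whether the replicate numbers of the labels pair mice. With the number as a replicate block 0 probes passed, 2619 did at an unadjusted p under 0.05, and the mean difference of the members was -0.13.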

Other observations

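Other cell types that a crypt dissection can carry were read from lists of their markers, with no member passing the adjusted test in limma. Leukocyte genes had 10 of 11 measured. All 10 were above the 95th percentile of the negative controls in Cy3 on all arrays, as were 91.4% of all probes. Ptprc was near that level, at 450 to 474. Of the 10, 8 were lower in LOI(+), with a median difference of -0.20. Of all probes, 49% were lower. Cd53 was at -0.21 ± 0.081 and Ptprc at -0.20 ± 0.082, both at an unadjusted p under 0.05, where 2.3% of all probes were lower. Cd74, the invariant chain of antigen-presenting cells, was at -0.41 ± 0.20. The summed Cy3 of the leukocyte list ran from 18061 to 35913 on LOI(+) arrays and from 21210 to 67604 on LOI(-) arrays. Most of that sum came from Lyz2, a lysozyme, at 12568 to 61107 in Cy3 over the 6 arrays. Its log2 ratio of crypt over reference was 3.53 to 4.46. Of the 10 leukocyte genes, 3 were above the reference on all arrays and 5 were below it, among them Cd53 and Ptprc. The cells that the Lyz2 signal came from were not tested, so the sum is not a measure of leukocytes alone.

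Of the genes of enteric neurons, glia and interstitial cells, 7 of 11 were higher in LOI(+), with a median of 0.029. Vip, a neuropeptide of the gut wall, was at 0.35 ± 0.18, and Uchl1, a neuronal hydrolase, at 0.10 ± 0.057. Striated muscle genes, of which 11 of 12 had a probe, had a median of -0.061. Of these 8 were lower and 3 higher, where 49% of all probes were lower. Tnnt3 was at -0.082 ± 0.061, Myod1 at -0.081 ± 0.062 and Acta1, the skeletal muscle actin, at -0.21 ± 0.16. Mylpf was higher, at 0.086 ± 0.069.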
